A study of Homo sapiens with 24 samples.

Results

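The 10 genes described here encode 3 receptors of the epidermal growth factor (EGF) receptor family (EGFR, ERBB2 and ERBB3) and 7 of their ligands (AREG, EREG, EPGN, BTC, HBEGF, TGFA and NRG1). They were chosen by symbol from 48162 genes in RNA-seq tables of 24 libraries, and each symbol occurred once. Ligands of this family are made as membrane-anchored precursors, are cut free by proteases such as ADAM17, and bind receptors on the same or neighbouring cells. Bound receptors pair up and phosphorylate each other, which switches on ERK and AKT signalling and drives growth, survival and migration. In the pancreas EGFR and its ligand TGFA are known for their part in the change of acinar cells into duct-like cells.

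The study asked how pancreas cells respond to vesicles released by other cells. Its recipients were hTERT-HPNE (HPNE below), cells immortalised by the telomerase gene, and HPDE-H6c7 (HPDE below), immortalised epithelial cells of the pancreatic duct. Both were grown in keratinocyte serum-free medium and labelled as normal pancreas cells. Each line was kept for 24 h in 4 ways, with 3 biological replicates each: in fresh serum-free medium (untreated), in residual medium that vesicle isolation leaves behind, or with 1e10 extracellular vesicles (EV) per well. The vesicles came from PPCL-68 cells or from PANC-1, derived from a carcinoma of the pancreas. The labels do not say which donor cells the residual medium came from, and each recipient is a single line.

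The libraries held 29209142 to 46490312 reads on genes. KRT19 and EPCAM, which mark duct epithelium, were at 317 to 1140 FPKM (fragments per kilobase of gene, scaled to library size) and 148 to 192 FPKM in the 12 HPDE libraries. In the 12 HPNE libraries they reached at most 0.905 and 0.162 FPKM, and VIM, a filament gene of mesenchymal cells, was at 149 to 539 FPKM there against 19.6 to 28.6 FPKM in HPDE. Of 10 duct markers, 3 averaged at least 1 FPKM in each HPNE group and 8 in each HPDE group, with sums of 6.89 to 16.5 FPKM and 1452 to 3537 FPKM over the libraries of each line. Summed levels of acinar, endocrine and leukocyte markers were at most 0.351 FPKM in any library. In each HPNE group 1 library stood apart from a close pair across all genes, at 2.05 to 3.31 times the distance within the pair, against 1.08 to 1.24 times in HPDE. They were the replicates numbered 3 in the untreated and residual medium groups and 1 in both EV groups. Differences within HPNE are given with and without these 4 libraries for the genes of the set. For other genes of the pathway they are given with all 12 libraries only.

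The 4 ligand genes with the largest rise in HPDE with PANC-1 EV (values below) are shown first by the 250 bases before their start, so that the promoters of genes whose RNA rose together can be compared. The sequences are from RefSeq (GRCh38.p14), written 5′ to 3′ on the gene's strand. Capitals mark matches on either strand to TGACG, the core of the cAMP response element, to the full palindrome TGACGTCA that contains it, to TGANTCA, the AP-1 site, and to TATAAA, the TATA box.
EPGN (chr4:74308220-74308469, plus strand): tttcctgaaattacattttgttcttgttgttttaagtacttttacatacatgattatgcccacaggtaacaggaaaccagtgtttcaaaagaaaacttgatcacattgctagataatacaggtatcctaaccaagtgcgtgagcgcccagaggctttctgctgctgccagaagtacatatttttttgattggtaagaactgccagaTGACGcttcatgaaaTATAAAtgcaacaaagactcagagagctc
EREG (chr4:74364895-74365144, plus strand): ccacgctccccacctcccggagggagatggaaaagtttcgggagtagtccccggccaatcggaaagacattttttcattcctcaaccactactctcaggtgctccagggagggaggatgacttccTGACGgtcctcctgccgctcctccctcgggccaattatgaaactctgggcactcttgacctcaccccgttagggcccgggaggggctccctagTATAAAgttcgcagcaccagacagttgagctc
AREG (chr4:74444886-74445135, plus strand): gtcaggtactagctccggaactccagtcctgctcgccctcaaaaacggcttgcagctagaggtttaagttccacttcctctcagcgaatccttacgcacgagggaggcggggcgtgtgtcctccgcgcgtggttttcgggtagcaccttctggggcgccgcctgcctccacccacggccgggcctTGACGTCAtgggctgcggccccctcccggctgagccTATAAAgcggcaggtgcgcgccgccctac
HBEGF (chr5:140346604-140346853, minus strand): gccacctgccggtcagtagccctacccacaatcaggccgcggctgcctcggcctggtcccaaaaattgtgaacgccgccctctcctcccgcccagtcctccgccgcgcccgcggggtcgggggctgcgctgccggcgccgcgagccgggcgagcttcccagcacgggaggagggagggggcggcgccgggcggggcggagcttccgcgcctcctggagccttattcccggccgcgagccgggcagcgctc

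The palindrome TGACGTCA stood in the AREG window, from position -65 to -58 relative to the start, and in 1.65% of all 35116 RefSeq windows of the same length. The core TGACG was in the EPGN, EREG and AREG windows and in 21.2% of all. TATAAA was in the same 3 windows, beginning at -29, -32 and -29, against 10.7% of all windows. TGANTCA was in none of the 4 shown, and 6.57% of all windows held it. The HBEGF window held none of these patterns; it held the GC box GGGCGG, as did the AREG window and 42.6% of all. Of the 10 genes, 8 were matched in the RefSeq table, and NRG1, on chromosome 8, was not looked up. Windows of matched genes that are not shown held some of these patterns too. The TGFA window held the core of the cAMP response element, and the EGFR window held the TATA box. The AP-1 site was in the EGFR and ERBB2 windows, and the GC box in those of EGFR and TGFA. The patterns were thus not confined to the ligand genes that rose most, and their link to the responses was not tested.

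EPGN, EREG, AREG and BTC lie together on chromosome 4 of hg19, the build of the deposited tables, within 545707 bases. EPGN is at 75174190-75181024, EREG at 75230860-75254468, AREG at 75310851-75320726 and BTC, on the minus strand, at 75669969-75719896. The others lie on chromosomes 5 (HBEGF, 139712428-139726216), 2 (TGFA, 70674412-70781325), 7 (EGFR, 55086714-55324313), 17 (ERBB2, 37844167-37886679), 12 (ERBB3, 56473641-56497289) and 8 (NRG1). AREGB, a near-identical copy of AREG at 75480629-75490486 on chromosome 4, took at most 0.831% of the summed FPKM of both in HPNE and 0.498% in HPDE. How reads that fit both copies were counted was not tested, and reads lost or split between them would understate AREG.

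Untreated cells were compared first. Of the 10 genes, 9 were higher in untreated HPDE than in untreated HPNE and 0 were lower (limma, Benjamini-Hochberg adjustment). Beside them, 83.8% of all 12377 genes were called between the lines in either direction (87.8% without the 4 HPNE libraries that stood apart). The median log2 difference of all genes was itself 0.38 towards HPDE, and division by size factors moved it by -0.31. TGFA, ERBB3, BTC and EPGN averaged 1 FPKM or more over the 24 libraries only through HPDE, so their calls follow from the filter. The other genes called higher were AREG, EREG, EGFR, HBEGF and NRG1. TGFA, a ligand of EGFR, had 66.1, 66.4 and 68.6 FPKM in untreated HPDE and 0.0150, 0.0740 and 0.0243 FPKM in untreated HPNE, and at most 10 reads in any of the 12 HPNE libraries. ERBB3, the receptor with a nearly inactive kinase that binds neuregulins, had 2.96 to 3.17 FPKM in untreated HPDE and at most 14 reads in HPNE. The ligands BTC (at most 7 reads) and EPGN (at most 12) were likewise at the edge of detection in HPNE, against 2.48 to 3.48 FPKM and 2.66 to 3.10 FPKM in untreated HPDE. These 4 genes were not tested within HPNE.

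In untreated HPDE the order of mean levels per length was EREG (131 FPKM), AREG (128), TGFA (67.05), EGFR (58.1), HBEGF (32.4), ERBB2 (19.2), NRG1 (16.3), ERBB3 (3.07), BTC (3.03) and EPGN (2.89). EREG and AREG did not differ beyond the spread of their libraries, nor did the last 3. In untreated HPNE EGFR had 17.04, 16.7 and 26.6 FPKM, and ERBB2 (17.9 ± 1.62, SD, n = 3) lay within that range. EREG (11.4 ± 4.08), AREG (4.53 ± 0.598), HBEGF (2.50 ± 1.03) and NRG1 (1.38 ± 0.498) followed.

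EGFR, the receptor shared by all ligands of the set but NRG1, was higher in untreated HPDE by 1.52 on the log2(FPKM + 1) scale (SE 0.15, limma adjusted p 9.27e-09). All log2 differences below are on that scale, which understates changes of weakly expressed genes. ERBB2, the partner receptor with no ligand of its own, had a log2 difference of 0.10 between the lines (adjusted p 0.137). It was -0.24 (adjusted p 0.00344) when libraries were divided by size factors, a scaling that moved the median of all genes by -0.31, and 0.17 (adjusted p 0.00559) without the 4 HPNE libraries that stood apart.

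**Figure D1:**
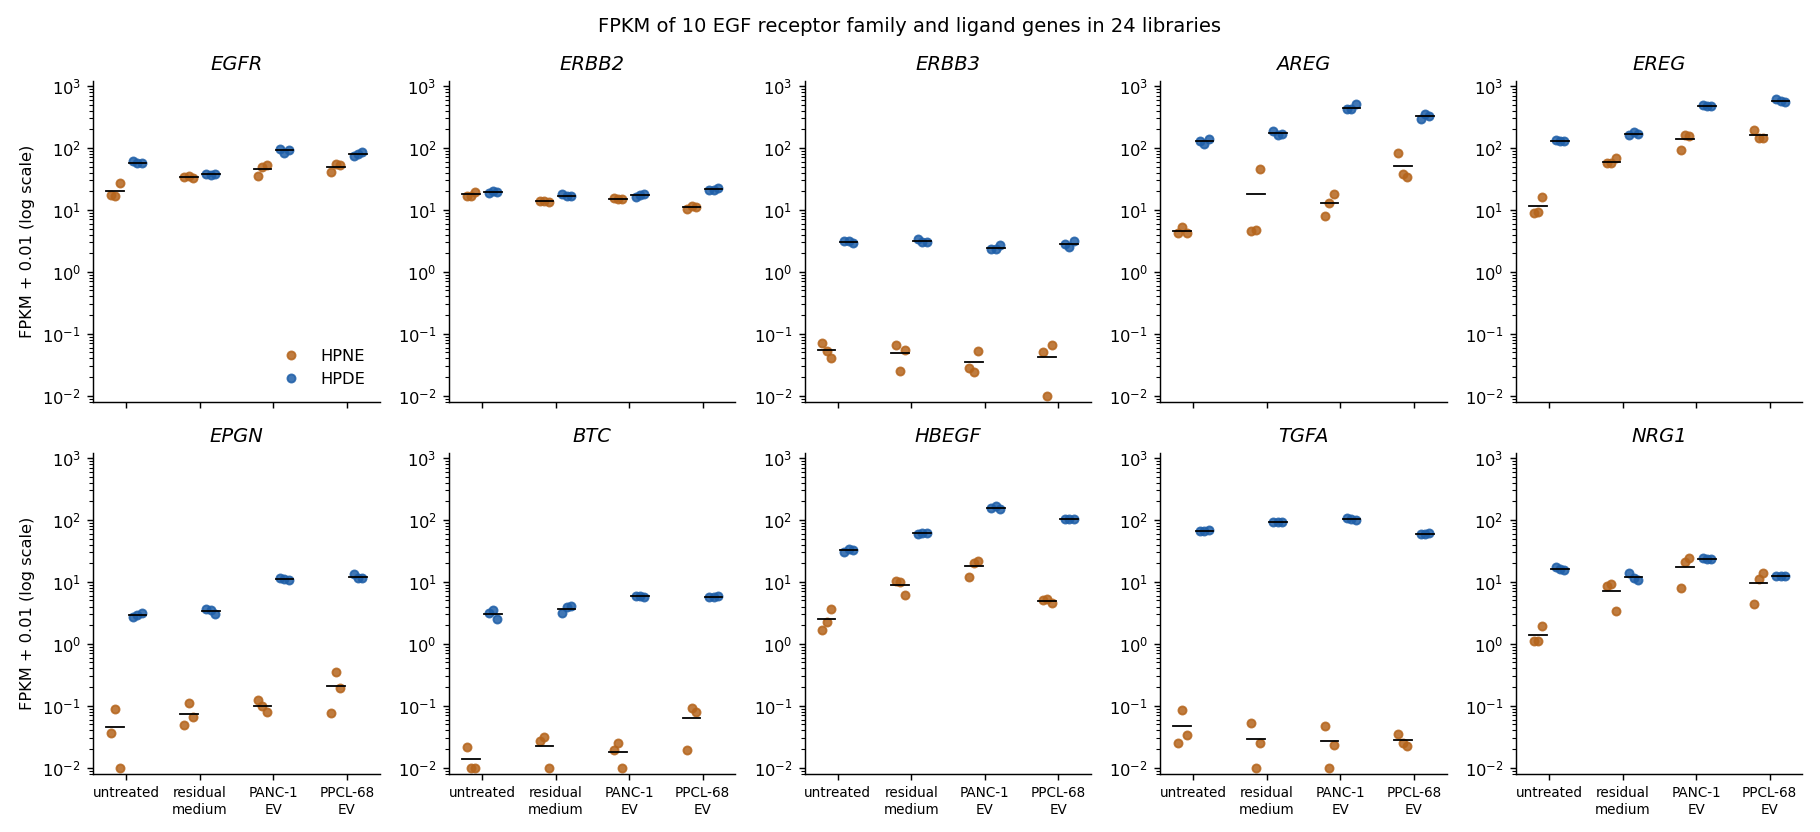
FPKM plus 0.01 on a log axis for each of the 10 genes, by treatment; each point is 1 library (HPNE brown, HPDE blue) and each line the mean of 3. ERBB3, TGFA, BTC and EPGN lie below 1 FPKM in all 12 HPNE libraries, and EREG and AREG reach their highest values in the HPDE libraries with vesicles.

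The effect of vesicles on HPDE was then assessed against residual medium. PANC-1 EV raised EGFR and all 7 ligand genes and lowered ERBB3, so that 9 of 10 genes changed, beside 63.3% of all 12223 genes tested. The median log2 difference of the 10 was 1.09, against -0.041 for all genes. With PPCL-68 EV 8 of 10 changed, beside 67.7% of all genes: EGFR, ERBB2 and 5 ligand genes rose and TGFA fell, with a median of 0.63 against -0.032. The residual medium libraries are common to these comparisons. In bulk RNA, fewer cells of a type and less RNA per cell cannot be told apart. The summed level of 10 duct markers, of which 8 had a mean of at least 1 FPKM, moved in the same comparisons. With residual medium it was 3159 to 3537 FPKM, under PANC-1 EV 1569 to 1831 and under PPCL-68 EV 1452 to 1466, and its part in the results for the 10 genes was not tested.

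EGFR itself had 37.2, 36.8 and 38.1 FPKM with residual medium, 97.6, 83.6 and 92.5 FPKM with PANC-1 EV and 75.3, 80.2 and 87.03 FPKM with PPCL-68 EV. Every library with vesicles lay above every library with residual medium. The mean ratio for PANC-1 EV was 2.44 (log2 difference 1.26, SE 0.060, limma adjusted p 4.6e-10). For PPCL-68 EV it was 2.16 (log2 difference 1.09, adjusted p 1.1e-09). Residual medium itself lay below fresh medium, where EGFR had 60.3, 56.3 and 57.6 FPKM (log2 difference -0.62, adjusted p 5.66e-06). The vesicle groups also lay above untreated cells, by 0.64 and 0.47 on the log2 scale (adjusted p 4.27e-07 and 7.14e-06).

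The other receptors moved little. ERBB2 had 17.9, 16.5 and 16.6 FPKM with residual medium and 16.3, 17.2 and 17.9 FPKM with PANC-1 EV, overlapping groups with a log2 difference of 0.011 (adjusted p 0.867). With PPCL-68 EV it rose to 21.2, 21.1 and 22.8 FPKM, above all residual medium libraries (log2 difference 0.33, SE 0.052, adjusted p 5.65e-05). ERBB3 fell with PANC-1 EV from 3.34, 2.99 and 3.03 FPKM to 2.31, 2.31 and 2.66 FPKM (log2 difference -0.27, adjusted p 0.00675). With PPCL-68 EV it had 2.79, 2.49 and 3.10 FPKM, which overlapped residual medium (log2 difference -0.12, adjusted p 0.17). ERBB2 overlaps MIEN1 and PGAP3 on the opposite strand, each at no more than 6.29 FPKM, and without strand their reads cannot be told apart.

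Epiregulin and amphiregulin were the most abundant ligands in every HPDE group. EREG, whose product binds EGFR and ERBB4, had 159, 179.7 and 169.7 FPKM with residual medium, 494, 476 and 473 FPKM with PANC-1 EV and 618, 561 and 551 FPKM with PPCL-68 EV. The 3 groups did not overlap, and the log2 differences from residual medium were 1.50 and 1.76 (SE 0.055, adjusted p 3.18e-11 and 4.91e-12). Its mean held rank 56 of 48162 genes with PPCL-68 EV, and rank 298 with residual medium. AREG, whose product binds EGFR, had 190.2, 159 and 166 FPKM with residual medium, 418, 422 and 502 FPKM with PANC-1 EV and 288, 356 and 329.7 FPKM with PPCL-68 EV. These groups were separate too, with the highest level under PANC-1 EV. The log2 differences from residual medium were 1.38 and 0.91 (SE 0.096, adjusted p 2.35e-08 and 9.57e-07).

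EPGN, a low-affinity EGFR ligand and the neighbour of EREG on chromosome 4, was rare but rose about as far. It had 3.65, 3.49 and 3.04 FPKM with residual medium, 11.5, 11.2 and 10.7 FPKM with PANC-1 EV and 13.3, 11.5 and 11.4 FPKM with PPCL-68 EV. The mean ratios were 3.28 and 3.55 (log2 differences 1.47 and 1.57, adjusted p 6.36e-10 and 1.81e-10). BTC, the farthest of the chromosome 4 group and a ligand of EGFR and ERBB4, rose less. It went from 3.16, 3.90 and 4.06 FPKM to 6.003, 5.89 and 5.70 FPKM and to 5.65, 5.68 and 5.88 FPKM, with log2 differences of 0.55 and 0.52 (adjusted p 0.000102 and 0.000127).

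HBEGF, the heparin-binding ligand of EGFR and ERBB4, had 59.04, 62.3 and 61.4 FPKM with residual medium, 155, 165 and 149.9 FPKM with PANC-1 EV and 104, 102 and 102 FPKM with PPCL-68 EV. The groups were separate, with log2 differences of 1.35 and 0.75 from residual medium (SE 0.046, adjusted p 1.75e-11 and 3.8e-09). HBEGF had the widest range of the 10 genes over the 4 HPDE group means, 2.24 on the log2 scale. By the root mean square difference of centred log2 values over the 12 HPDE libraries, the genes most like it were CCL20, a chemokine (0.0996), IL1A, a cytokine (0.12), and GADD45A, a stress-response gene (0.20).

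In HPDE, TGFA and NRG1 were the ligands on which the vesicle sources parted most. TGFA had 90.8, 93.8 and 91.9 FPKM with residual medium, and PANC-1 EV raised it to 106, 103 and 100.1 FPKM (log2 difference 0.16, SE 0.037, adjusted p 0.00202). With PPCL-68 EV it fell to 60.3, 59.6 and 60.6 FPKM (log2 difference -0.61, adjusted p 3.49e-09), below the 66.1 to 68.6 FPKM of untreated cells as well. NRG1, the neuregulin that binds ERBB3 and ERBB4, had 13.8, 11.7 and 10.8 FPKM with residual medium and PANC-1 EV raised it to 24.3, 22.96 and 23.5 FPKM (log2 difference 0.91, SE 0.068, adjusted p 5.1e-08). With PPCL-68 EV it had 12.6, 12.3 and 12.6 FPKM, within the range of residual medium. That log2 difference was 0.046 (adjusted p 0.568), or 0.14 (adjusted p 0.0444) without residual medium replicate 1.

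Compared directly, PPCL-68 EV and PANC-1 EV differed for 7 of the 10 genes in HPDE, beside 50.1% of all genes. With PPCL-68 EV, EREG (log2 difference 0.26, adjusted p 0.00134) and ERBB2 (0.32, adjusted p 0.00017) were higher. Lower were NRG1 (-0.87), TGFA (-0.76), HBEGF (-0.60), AREG (-0.46) and EGFR (-0.17, adjusted p 0.0272). EGFR overlapped between the groups, and its call was lost without replicate 1 or 3 of PANC-1 EV (adjusted p 0.122 and 0.0745) or replicate 1 or 2 of PPCL-68 EV (0.12 and 0.0658). EPGN, BTC and ERBB3 had log2 differences of 0.10, -0.026 and 0.15 and did not pass the test.

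**Figure D2:**
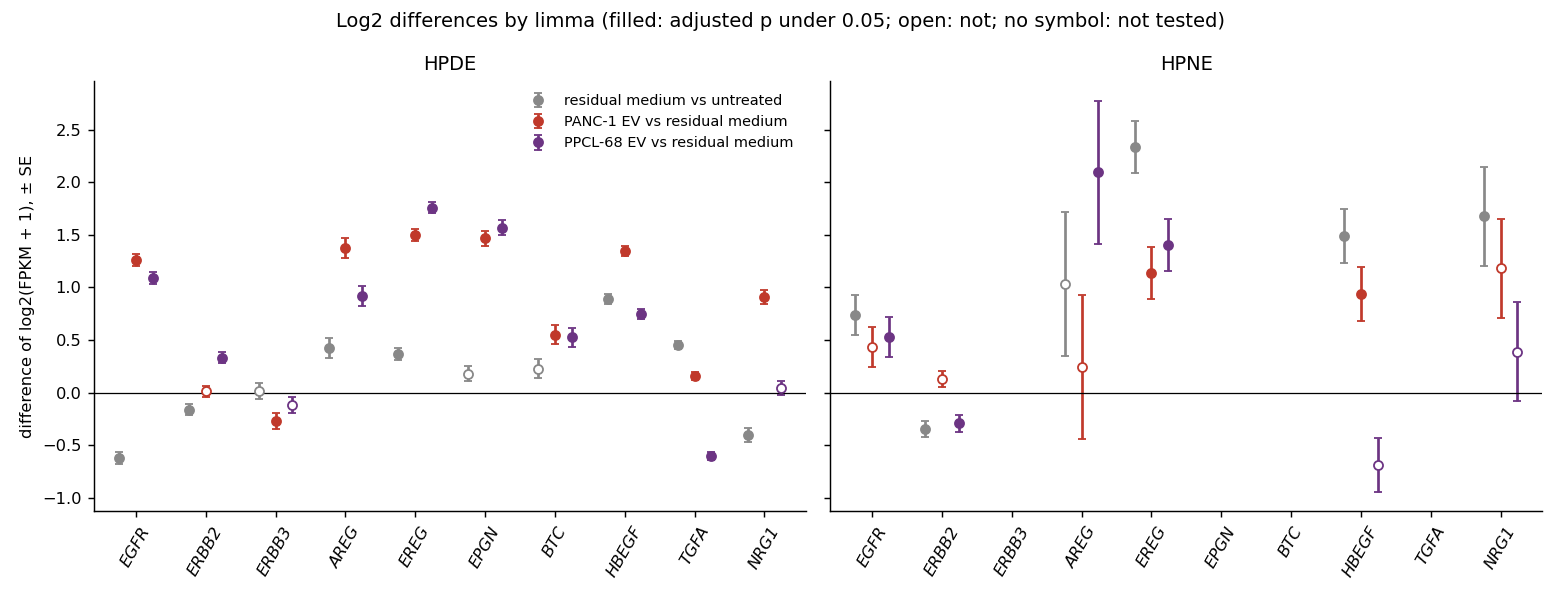
Log2 differences of each gene with their standard errors (limma on log2(FPKM + 1)) for residual medium vs untreated (grey), PANC-1 EV vs residual medium (red) and PPCL-68 EV vs residual medium (purple); filled symbols passed an adjusted p of 0.05 and genes with no symbol were not tested. In HPDE TGFA lies above 0 with PANC-1 EV (0.16) and below 0 with PPCL-68 EV (-0.61), and the HPNE standard errors are wider.

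Residual medium against fresh medium changed 7 of the 10 genes in HPDE, beside 20.0% of all genes, with a median log2 difference of 0.20 against -0.0094. The share of all genes was 11.7% without untreated replicate 1. HBEGF rose most, from 30.6, 33.4 and 33.2 FPKM to 59.04, 62.3 and 61.4 FPKM (log2 difference 0.89, adjusted p 1.12e-08). TGFA (0.45), AREG (0.42) and EREG (0.37) rose less, and the 3 residual medium libraries lay above the 3 untreated ones for each. AREG had an adjusted p of 0.0073, or 0.0547 with no filter on low genes. EGFR (-0.62), NRG1 (-0.40) and ERBB2 (-0.17, adjusted p 0.0394) fell. The ERBB2 call was lost under size factors (0.062), with the replicate number as a block (0.0623), and without replicate 2 or 3 of either group (adjusted p from 0.0915 to 0.144). EPGN and BTC had log2 differences of 0.18 and 0.23, with overlapping groups. BTC passed without untreated replicate 2 (adjusted p 0.0421) or residual medium replicate 1 (0.0359).

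Against untreated HPDE cells, 10 of 10 genes differed with PANC-1 EV, beside 60.6% of all genes, and 9 with PPCL-68 EV, beside 66.3%. These comparisons share the vesicle libraries with those above. HBEGF reached 4.83 and 3.17 times the untreated mean (PANC-1 EV first, PPCL-68 EV after it), and EREG 3.67 and 4.40 times. EPGN reached 3.86 and 4.18 times, and AREG 3.51 and 2.54 times. With PPCL-68 EV, NRG1 (log2 difference -0.36, adjusted p 0.000321) and TGFA (-0.15, adjusted p 0.00213) lay below untreated cells. ERBB2 was lower with PANC-1 EV (-0.15, adjusted p 0.0199) and higher with PPCL-68 EV (0.17, adjusted p 0.0114). Each of these ERBB2 calls was lost without 1 of 2 libraries: untreated replicate 2 (0.0886) or PANC-1 EV replicate 1 (0.0859) for the first, and untreated replicate 1 (0.055) or PPCL-68 EV replicate 3 (0.0545) for the other.

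Summed over the 7 ligand genes, HPDE had 380.1 ± 14.4 FPKM untreated, 513 ± 6.57 with residual medium, 1228 ± 32.2 under PANC-1 EV and 1094 ± 18.4 under PPCL-68 EV (SD, n = 3). AREG and EREG together made up 65.9 to 67.2% of this sum in the residual medium libraries, 74.5 to 77.1% under PANC-1 EV and 82.1 to 82.7% under PPCL-68 EV. TGFA made up 17.96% with residual medium and 5.50% with PPCL-68 EV. HPNE had sums of 19.9 ± 5.29, 93.99 ± 24.4, 186 ± 57.7 and 228 ± 49.9 FPKM in the same order, and EREG alone made up 56.6 to 74.3% of each group's sum on average. The sums are descriptions and were not tested.

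**Figure D3:**
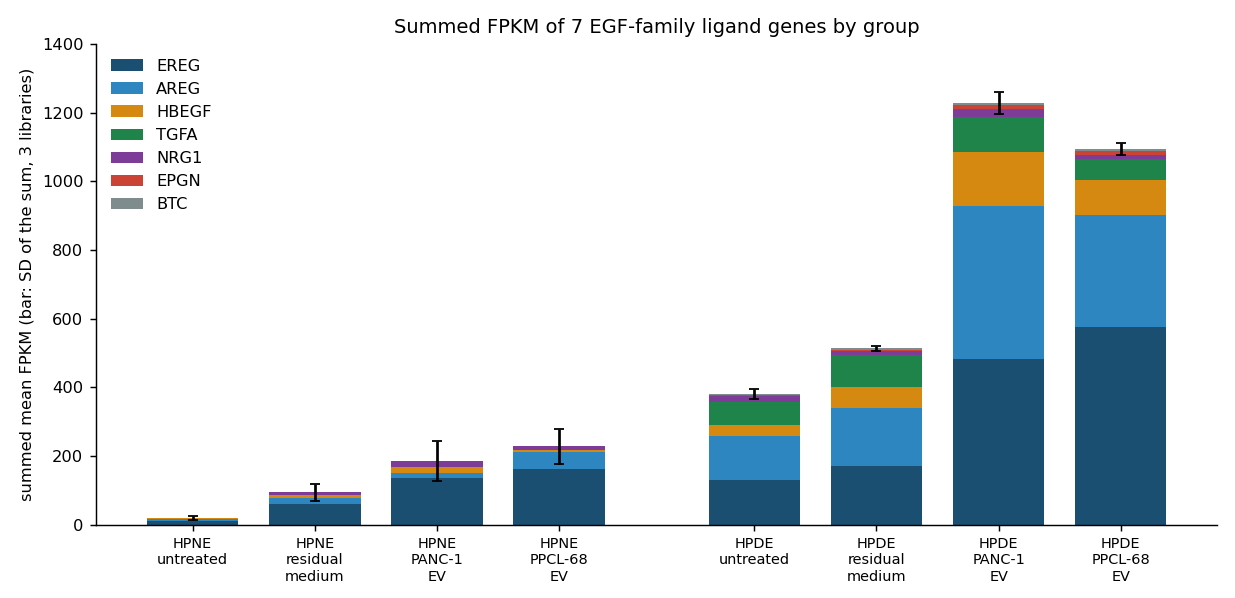
Mean FPKM of the 7 ligand genes stacked by group, with the SD of the sum over 3 libraries. EREG and AREG fill most of every HPDE bar, and the sums with vesicles (1228 and 1094 FPKM) stand above that with residual medium (513 FPKM).

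In HPNE 6 of the 10 genes were abundant enough to test. Residual medium against fresh medium changed 5 of the 6, beside 43.9% of all 11503 genes tested, with a median log2 difference of 1.26 against -0.048. The share of all genes called in HPNE moved with single libraries: here it was 26.2% without untreated replicate 2 and 52.7% without residual medium replicate 3. EREG rose from 8.88, 9.31 and 16.2 FPKM to 56.1, 56.3 and 67.7 FPKM (mean ratio 5.24, log2 difference 2.34, SE 0.25, adjusted p 0.000102). HBEGF rose from 1.64, 2.23 and 3.64 FPKM to 10.3, 10.04 and 6.04 FPKM (log2 difference 1.49, adjusted p 0.00152). EGFR rose from 17.04, 16.7 and 26.6 FPKM to 33.7, 34.6 and 32.3 FPKM (log2 difference 0.74, adjusted p 0.0109), a call lost without untreated replicate 2 (0.0513). The residual medium libraries lay above the untreated ones for these 3 genes. Division by size factors raised the median of all genes in this comparison by 0.11.

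NRG1 rose in HPNE from 1.09, 1.08 and 1.95 FPKM to 8.59, 9.11 and 3.33 FPKM with residual medium (log2 difference 1.68, SE 0.47, adjusted p 0.0152). This call was lost without replicate 1 or 2 of either group, with adjusted p from 0.0528 to 0.0616. ERBB2 fell from 16.8, 17.00 and 19.7 FPKM to 14.1, 13.7 and 13.6 FPKM (log2 difference -0.35, adjusted p 0.00567). AREG rested on 1 library: residual medium gave 4.49, 4.68 and 45.03 FPKM, against 4.22, 5.22 and 4.16 FPKM in untreated cells. Its log2 difference was 1.03 (adjusted p 0.234), and -0.030 (adjusted p 0.852) without the 4 libraries that stood apart.

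EGFR thus responded to residual medium in opposite directions in the 2 lines. The difference between the lines was tested by an interaction contrast over all 24 libraries, in which 3 of the 6 genes tested in both lines passed, beside 38.1% of all genes (61.9% without the 4 HPNE libraries). Like the comparison of untreated cells, this fit assumes a common spread, although HPNE libraries varied more, so its p-values are approximate. HPDE minus HPNE was -1.36 for EGFR (SE 0.21, adjusted p 0.000102), -1.97 for EREG (adjusted p 2.85e-05), and -2.08 for NRG1 (adjusted p 0.004). TGFA had 0.48 (adjusted p 1.9e-05, or 0.134 by limma voom on recovered reads), but with at most 10 reads in any HPNE library its response there was not measurable.

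Vesicles were compared with residual medium in HPNE as well. With PANC-1 EV 2 of 6 passed, beside 24.2% of all genes, and the median log2 difference was 0.69 against 0.020. That share was 11.7% without residual medium replicate 1 and 38.6% without residual medium replicate 3. EREG rose to 91.2, 163 and 158 FPKM, above all residual medium libraries (log2 difference 1.14, SE 0.25, adjusted p 0.0091). HBEGF rose to 11.9, 20.2 and 21.5 FPKM without overlap (log2 difference 0.94, SE 0.26, adjusted p 0.0232), a call lost without PANC-1 EV replicate 2 (0.0809) or 3 (0.0804). EGFR, at 35.5, 49.9 and 53.8 FPKM, had a log2 difference of 0.44 (adjusted p 0.114), and NRG1, at 7.93, 20.8 and 24.2 FPKM, one of 1.18 (adjusted p 0.0857). The lowest value of both was replicate 1, the library that stood apart, and without it both passed (0.61, adjusted p 0.0449, and 1.64, adjusted p 0.0295). AREG, at 8.07, 12.8 and 18.02 FPKM, had 0.24 (adjusted p 0.814), and 1.26 (adjusted p 0.0202) without residual medium replicate 3.

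With PPCL-68 EV 4 of the 6 passed in HPNE, beside 39.9% of all genes (27.0% and 47.0% without those libraries). EREG rose to 193, 147 and 145 FPKM (log2 difference 1.41, adjusted p 0.00155). AREG rose to 82.6, 37.5 and 33.9 FPKM (log2 difference 2.10, SE 0.68, adjusted p 0.03), although residual medium replicate 3, at 45.03 FPKM, overlapped these. This call was lost without replicate 1 (0.121) or 2 (0.118) of residual medium or replicate 1 (0.102) or 2 (0.0537) of PPCL-68 EV. EGFR rose to 40.7, 54.8 and 52.1 FPKM (log2 difference 0.53, adjusted p 0.0469), a call lost in 7 of the 12 fits that left out 1 library. Those were fits without untreated replicate 1, PANC-1 EV replicate 2, any residual medium library, or PPCL-68 EV replicate 2 or 3, with adjusted p up to 0.144. ERBB2 fell to 10.4, 11.7 and 11.2 FPKM (log2 difference -0.29, adjusted p 0.0125), below all residual medium libraries. HBEGF, at 5.01, 5.29 and 4.55 FPKM, also lay below all of them with a log2 difference of -0.69 (adjusted p 0.0521), or -0.91 (adjusted p 0.0144) without residual medium replicate 3. NRG1, at 4.30, 11.1 and 13.7 FPKM, overlapped residual medium.

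Without the 4 libraries that stood apart, 2 libraries were left in each HPNE group and more of the genes passed. With PANC-1 EV 5 of the 6 then passed against residual medium, beside 59.1% of all 11463 genes: AREG (log2 difference 1.54), EREG (1.50), NRG1 (1.25), HBEGF (0.97) and EGFR (0.59) rose. With PPCL-68 EV 6 of 6 passed, beside 65.7%: AREG (2.72), EREG (1.36), EGFR (0.63) and NRG1 (0.44) rose, and HBEGF (-0.92) and ERBB2 (-0.26) fell. Residual medium against fresh medium then changed 5 of 6, beside 71.7% of all genes: EREG (2.50), NRG1 (2.24), HBEGF (1.93) and EGFR (0.98) rose and ERBB2 (-0.27) fell. Between the vesicle sources 5 of 6 passed, beside 36.5%: with PPCL-68 EV AREG (1.18) was higher, and HBEGF (-1.89), NRG1 (-0.81), ERBB2 (-0.36) and EREG (-0.14) were lower. Against untreated cells all 6 passed with each vesicle type, beside 62.7% and 69.6% of all genes. EREG had log2 differences of 3.998 (PANC-1 EV) and 3.86 (PPCL-68 EV) there, NRG1 3.49 and 2.68, and HBEGF 2.90 and 1.02. EGFR had 1.56 and 1.61, AREG 1.51 and 2.69, and ERBB2 -0.17 and -0.53. The spread in these fits comes from pairs that are closest by the choice of libraries, so their p-values are too small.

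**Figure D4:**
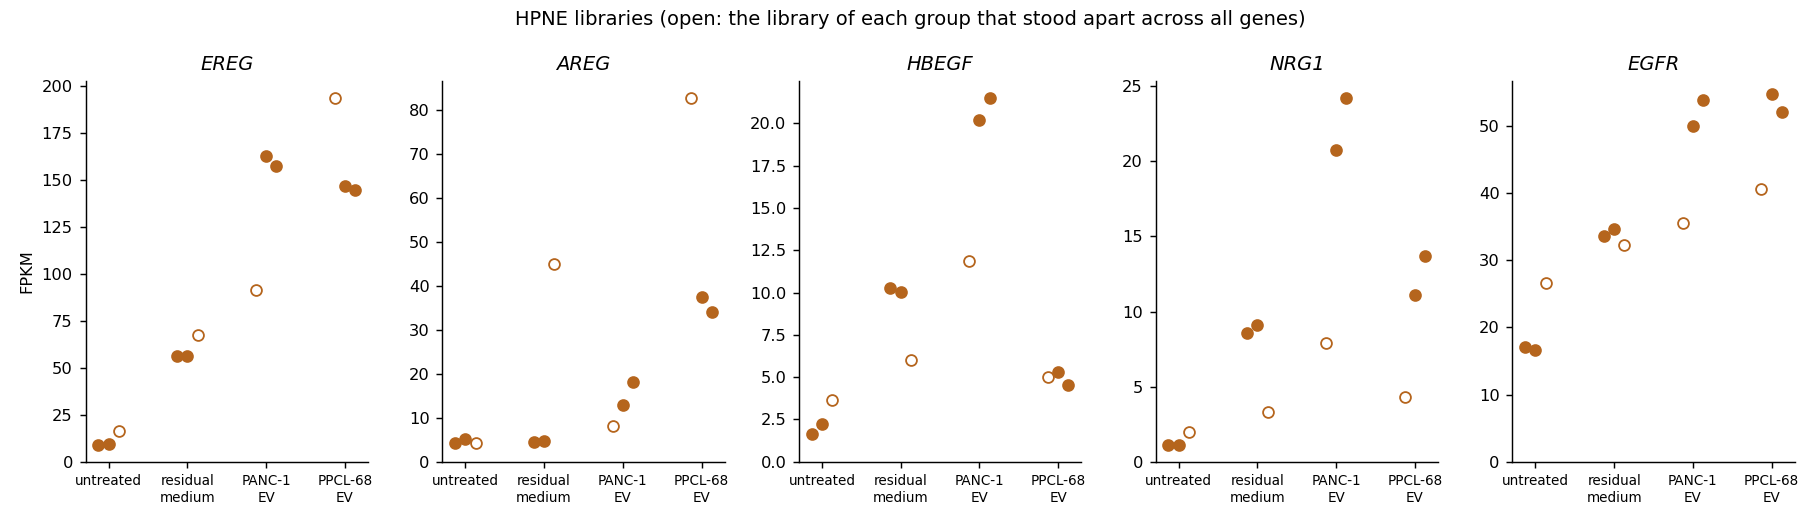
FPKM of 5 genes in the 12 HPNE libraries by treatment; open symbols are the library of each group that stood apart across all genes. Residual medium replicate 3 carries 45.03 FPKM of AREG against 4.49 and 4.68 in its group, and the open symbols of both EV groups are the lowest of their group for NRG1 and EGFR.

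Between the vesicle sources, 2 of the 6 genes differed in HPNE, beside 5.47% of all genes. That share was 1.16% without PPCL-68 EV replicate 2 and 11.4% without residual medium replicate 3. HBEGF was lower with PPCL-68 EV than under PANC-1 EV, without overlap (log2 difference -1.62, SE 0.26, adjusted p 0.00685). ERBB2 was lower without overlap (-0.42, adjusted p 0.0142), a call lost without PANC-1 EV replicate 2 (0.0628) or PPCL-68 EV replicate 3 (0.0555). AREG was 3.96 times as high in the mean with PPCL-68 EV, every library above every PANC-1 EV library (log2 difference 1.85, SE 0.68, adjusted p 0.132). It passed without residual medium replicate 3 (0.00857), which enters through the shared spread.

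Against untreated HPNE cells, 4 of 6 genes passed with PANC-1 EV, beside 21.1% of all genes, and 6 with PPCL-68 EV, beside 42.5%. The first share was 9.06% without PANC-1 EV replicate 3. EREG was at 11.99 and 14.1 times the untreated mean (PANC-1 EV first; log2 differences 3.47 and 3.74), and NRG1 at 12.8 and 7.05 times. HBEGF was at 7.14 times with PANC-1 EV and 1.98 times with PPCL-68 EV. The latter (adjusted p 0.0264) was lost without untreated replicate 1 or 2 or any PPCL-68 EV library, with adjusted p up to 0.108. EGFR was higher by 1.18 and 1.27 on the log2 scale. AREG was at 11.3 times the untreated mean under PPCL-68 EV, a rise (log2 difference 3.13, adjusted p 0.00377). With PANC-1 EV its libraries lay above untreated cells too (1.28, adjusted p 0.198, or 0.0164 without residual medium replicate 3). ERBB2 was lower with PPCL-68 EV (-0.64, adjusted p 0.000125).

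EREG had the widest range of HPNE group means (3.74). The genes most like it over the 12 HPNE libraries were ICAM1, an adhesion gene, RP11-575F12.2 and LIF, a cytokine, at root mean square differences of 0.45, 0.45 and 0.48. The genes most like EGFR were SRGAP1, NCR3LG1 and SPIRE1 in HPDE (0.12, 0.12 and 0.14). In HPNE they were NEDD4, a ubiquitin ligase, RAPH1 and SIM2 (0.13, 0.14 and 0.14).

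The response to vesicles was compared between the lines by the interaction contrast. For PANC-1 EV against residual medium 1 of the 6 genes tested in both lines passed, beside 21.2% of all genes (34.8% without HPNE residual medium replicate 3), and for PPCL-68 EV 2 of 6, beside 25.7%. Without the 4 HPNE libraries the shares of all genes were 46.7% and 45.8%. The HBEGF response to PPCL-68 EV differed by 1.43 (HPDE minus HPNE, SE 0.27, adjusted p 0.000692) and that of ERBB2 by 0.63 (SE 0.089, adjusted p 3.41e-05). EGFR responded more to PANC-1 EV in HPDE (difference 0.83, SE 0.21, adjusted p 0.00898). EPGN and BTC also passed for both vesicle types and TGFA for PPCL-68 EV, but they had at most 12 reads each in any HPNE library, their HPNE response was not measurable, and none of these calls was made by limma voom. EREG had differences of 0.36 and 0.35 (SE 0.27, adjusted p 0.351 and 0.359). AREG had -1.18 for PPCL-68 EV (adjusted p 0.256), and -2.20 (adjusted p 0.000187) without HPNE residual medium replicate 3.

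Another 29 genes of the pathway, listed by role, were counted in the same fits, of which 22 were tested in each line. ERBB4 and EGF, the remaining receptor and the founding ligand, had at most 13 and 61 reads in any library and were not tested. In HPDE 9 rose and 5 fell with PANC-1 EV, and 10 rose and 7 fell with PPCL-68 EV, beside 63.3% and 67.7% of all genes changed, with medians of 0.072 and 0.10. ERRFI1, which encodes MIG6, an inhibitor of the EGFR kinase, was raised by PANC-1 EV from 46.3 ± 4.10 to 133 ± 8.89 FPKM (log2 difference 1.50, SE 0.062, adjusted p 1.11e-10). With PPCL-68 EV it rose to 90.2 ± 2.84 FPKM (0.95, adjusted p 6.92e-09). RHBDF2, which encodes iRhom2, a partner of ADAM17, rose with PANC-1 EV by 0.59 (adjusted p 4.33e-06), and UBASH3B, which restrains receptor degradation, had -0.80 (adjusted p 3.85e-08). With PPCL-68 EV, SOCS3, a feedback inhibitor of cytokine signalling, rose by 0.77 and ADAM17, the sheddase of several of these ligands, by 0.68 (adjusted p 4.4e-07 and 2.93e-08). SOCS3 and ADAM17 rose with PANC-1 EV too, by 0.53 and 0.57 (adjusted p 2.57e-05 and 2.99e-07). RHBDF2 and UBASH3B had 0.54 and -0.49 with PPCL-68 EV (adjusted p 7.75e-06 and 3.76e-06). Between the sources, SOCS3 (0.24) and UBASH3B (0.31) were higher with PPCL-68 EV, and ADAM17 and RHBDF2 did not pass (adjusted p 0.0823 and 0.564).

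In HPNE 7 of the 22 rose and 0 fell with PANC-1 EV, and 6 rose and 2 fell with PPCL-68 EV, beside 24.2% and 39.9% of all genes. TIMP3, which encodes an inhibitor of ADAM17, was at 4.45 ± 0.518 FPKM in untreated cells, 0.672 ± 0.0764 with residual medium and 2.43 ± 0.694 under PANC-1 EV. It rose with PANC-1 EV by 1.02 over residual medium (adjusted p 0.00103). EPS8, a receptor substrate, and LRIG1, which promotes receptor degradation, rose by 0.62 and 0.49. EPS8 rose with PPCL-68 EV too, by 0.49 (adjusted p 0.0128). ERRFI1 fell with PPCL-68 EV from 61.8 ± 6.45 to 35.5 ± 0.593 FPKM (log2 difference -0.78, adjusted p 0.000112), as did SOCS5 (-0.60), and STAM, a sorting protein of internalised receptors, rose by 0.54. The ERRFI1 response to vesicles differed between the lines by 1.62 (PANC-1 EV) and 1.73 (PPCL-68 EV; HPDE minus HPNE, SE 0.11, adjusted p 7.13e-09 and 7.63e-10). Residual medium changed 8 of the 22 in HPDE (4 higher, 4 lower) and 10 in HPNE (4 higher, 6 lower), beside 20.0% and 43.9% of all genes, led by SOCS3 (1.35) in HPDE and TIMP3 (-1.70) in HPNE.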

How the data were processed

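RNA was measured in 24 libraries of 8 groups, 3 each. The library kit kept no strand, per the labels' protocols. The authors deposited 1 table per library with an FPKM value per gene, its length, symbol and hg19 position, per the file headers. The submitters' processing notes name CASAVA, STAR, HTSeq, DESeq2 and hg19, with no roles; the annotation release is not given in the sources used here. Whole reads were recovered from FPKM times gene length (100% of nonzero values within 0.02 reads), giving 29209142 to 46490312 per library. FPKM is relative to each library's total, so that abundant genes shift the others.

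Differences were tested with limma 3.58.1 (R 4.3.3, lmFit and eBayes with trend, two-sided) on log2(FPKM + 1). Each line was fitted on its 12 libraries (8 residual degrees of freedom), or both lines on 24, keeping genes that averaged 1 FPKM or more. P-values were Benjamini-Hochberg adjusted over all genes tested, threshold 0.05. The 10 genes, the 29 other pathway genes (at most 3 named per comparison, those called with the largest differences) and the marker lists were chosen with earlier results of these data known. Some of the named pathway genes are also given in other comparisons. Genes of similar pattern were the 3 nearest, for EGFR and for the gene of the set with the widest range in each line. Alternatives were a pseudocount of 0.1, no filter, size factors, a fit of 6 libraries, limma voom on the recovered reads, a replicate block, AREG plus AREGB, and left-out libraries. By voom 2924 genes were called between PANC-1 EV and residual medium in HPNE and 7833 in HPDE, against 2784 and 7736. On simulated reads with genes changed 2-fold in that comparison, limma recovered 197 of 197 tested in HPNE (11490 genes) and 196 of 198 in HPDE (12214 genes). It also called 11 and 15 unchanged genes. The simulated libraries of a line shared the same dispersion and none stood apart, so the recovery does not carry over to the real HPNE libraries. Promoter windows are from RefSeq, in another build than the tables, and were matched by symbol.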

Additional observations from a re-analysis of the deposited data

Results flagged for a closer look

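The interaction contrast passed its threshold for 12 responses of the 10 genes (limma, 24 libraries, HPDE minus HPNE on the log2 scale). Over all genes, 21.2% passed for PANC-1 EV, 25.7% for PPCL-68 EV and 38.1% for residual medium. Of the 6 genes tested in both lines, 1, 2 and 3 passed in the same order. BTC, EPGN and TGFA met the filter on mean FPKM only through HPDE. For PANC-1 EV against residual medium the differences were 0.83 for EGFR, 0.56 for BTC and 1.43 for EPGN. For PPCL-68 EV they were 0.63 for ERBB2, 1.43 for HBEGF, -0.60 for TGFA, 0.47 for BTC and 1.41 for EPGN. For residual medium against fresh medium they were -1.36 for EGFR, -1.97 for EREG, 0.48 for TGFA and -2.08 for NRG1. BTC, EPGN and TGFA had no more than 7, 12 and 10 reads in a library of HPNE, and by limma voom on the recovered reads none of their differences passed (BTC 0.457 and 0.505, EPGN 0.217 and 0.564, TGFA 0.432 and 0.134 as adjusted p).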

How the results depend on the processing

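In HPDE no count of the 10 genes changed moved by over 1.5 times under any alternative run. Over all genes, the 2443 changed by residual medium there became 1527 with no filter and 1427, 1576 and 1613 without untreated replicate 1, residual medium replicate 1 or untreated replicate 3. Against residual medium in HPNE, PANC-1 EV changed 2 of 6 genes, 1 with no filter, 1 with the 6 libraries compared alone, 5 without the 4 libraries that stood apart, and 1 to 4 with 1 library left out. PPCL-68 EV changed 4, 2 with no filter, and 2 to 5 with 1 left out. Residual medium against fresh medium changed 5, and 3 to 5 with 1 left out. PPCL-68 EV against PANC-1 EV changed 2, 5 without the 4 libraries, and 1 to 3 with 1 left out. The interaction counts of 3 (PANC-1 EV) and 5 (PPCL-68 EV) became 1 and 2 by limma voom and 6 and 9 without the 4 libraries. They are over all 10 genes, of which TGFA, BTC, EPGN and ERBB3 were at the edge of detection in HPNE. Without the 4 libraries the shares of all genes called rose too. For the interactions they went from 21.2% to 46.7% and from 25.7% to 45.8%. In HPNE they went from 24.2% to 59.1% (PANC-1 EV against residual medium) and from 5.47% to 36.5% (between vesicle sources).

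For single genes, under alternatives other than leaving out 1 library, 809 values kept direction and call, 26 gained the call, 22 lost it and 11 changed sign. Without the 4 libraries, AREG in HPNE with residual medium was -0.030, EREG in HPNE between vesicle sources -0.14 (adjusted p 0.0393), and the AREG difference between lines -0.16 for PANC-1 EV and 0.45 (adjusted p 0.0347) for residual medium. By limma voom the differences between lines were 0.25 (PANC-1 EV) and 0.69 (PPCL-68 EV) for ERBB3, -0.90 (PPCL-68 EV) and -0.67 (residual medium) for BTC, and -0.83 for EPGN with residual medium, which a pseudocount of 0.1 put at -0.081. Size factors gave -0.24 for ERBB2 between untreated lines. The cause was not tested.

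With 1 library left out, 17 values changed sign, none of a called difference. Ranges in HPNE were -0.28 to 1.26 (AREG, PANC-1 EV against residual medium), -0.0059 to 0.83 (NRG1, PPCL-68 EV against residual medium), -0.085 to 0.22 (EGFR) and -0.00030 to 0.41 (EREG) between vesicle sources. In HPDE they were -0.019 to 0.047 (ERBB2, PANC-1 EV), -0.025 to 0.14 (NRG1, PPCL-68 EV) and -0.022 to 0.039 (ERBB3, residual medium). Between lines they were -1.13 to 0.41 (AREG) and -0.013 to 0.048 (ERBB3) for residual medium, and -0.73 to 0.13 and -0.79 to 0.052 (NRG1) for PANC-1 EV and PPCL-68 EV.

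Blocking by replicate number gave counts against residual medium of 2 and 4 for HPNE, 9 and 8 for HPDE, and 6 in place of 7 for residual medium in HPDE. Same-numbered libraries did not deviate together throughout: correlations over 6 pairs of groups ran from -0.463 to 0.490 in HPNE and from -0.140 to 0.024 in HPDE, so the numbers were not taken as pairs. No HPNE library held more than 14 reads of TGFA, BTC, EPGN or ERBB3, and these genes were not tested there.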

Other observations

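Genes on either side of the ligand genes of chromosome 4 were looked at after their values were seen, and are given with no test. They are the nearest protein-coding genes with a mean of at least 1 FPKM in HPDE, so other genes can lie between. In HPDE the chemokine gene CXCL2, before EPGN, had log2 differences from residual medium of 1.20 (PANC-1 EV) and 0.96 (PPCL-68 EV). MTHFD2L, which lies between CXCL2 and EPGN, had 0.14 and 0.0047. Beyond BTC, which ends at 75719896, RCHY1 (from 76404247) had 0.088 and 0.19, and THAP6 had 0.53 and 0.42.

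Against untreated cells, 8 of the 22 other pathway genes tested rose and 7 fell with PANC-1 EV in HPDE, and 8 rose and 6 fell with PPCL-68 EV, beside 60.6% and 66.3% of all genes. In HPNE 5 rose and 2 fell with PANC-1 EV, and 5 rose and 6 fell with PPCL-68 EV, beside 21.1% and 42.5%. PTPN12, a phosphatase, was higher there by 0.94 and 1.19 (limma adjusted p 0.000241 and 1.35e-05), and TIMP3 had -0.68 and -1.42 (adjusted p 0.00808 and 3.75e-05). Most of the PTPN12 rise was already present without vesicles: residual medium lay above untreated HPNE by 0.87 (adjusted p 0.000191). Measured from residual medium, the PTPN12 difference under PANC-1 EV was 0.069 and did not pass (adjusted p 0.643). The rise under PPCL-68 EV was 0.32 on that basis (adjusted p 0.0267).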
